A study of Rattus norvegicus with 65 samples.

Results

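Noradrenaline, adrenaline and acetylcholine act on the heart muscle cell through receptors at its surface, the enzymes that make and break down cAMP, and the proteins that hold the cAMP-dependent kinase in place. The 9 genes of this signalling described here are the adrenergic receptors Adrb1, Adra1a and Adra1b, the muscarinic receptor Chrm2, the adenylyl cyclases Adcy5 and Adcy6, the phosphodiesterases Pde3a and Pde4d, and the kinase anchor Sphkap. The genes were listed by name, and all 9 were among the 14554 genes of the count table. They were chosen partly on measured values, since the fall of Sphkap in cells treated with Dox for 24 hours was known when the list was drawn up. The values of the 9 genes in that comparison, and in the comparison of the Dox effects at 24 and 6 hours, are therefore given as a description without a test.

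In the heart, the β1 receptor encoded by Adrb1 couples to the stimulatory G protein Gs, which activates adenylyl cyclase. The cAMP that is made activates protein kinase A (PKA), and PKA phosphorylates calcium channels, phospholamban, troponin I and the ryanodine receptor, so that the beat becomes faster and stronger. The muscarinic receptor M2 encoded by Chrm2 works against this through the inhibitory G protein Gi, the α1 receptors act through Gq and phospholipase C, and phosphodiesterases break cAMP down.

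The RNA came from primary cardiomyocytes of newborn rats, which were kept in serum-containing medium, starved of serum overnight and then treated for 6 or 24 hours. The drugs were 10 mM 5-fluorouracil (5FU, an antimetabolite used against cancer), 2.5 mM acetaminophen (Ace, a painkiller) and 1.25 µM doxorubicin (Dox, an anthracycline used against cancer), each dissolved in DMSO. DMSO1 wells held 1% DMSO and served as the control for 5FU. DMSO2 wells held 0.25% DMSO and served as the control for both Ace and Dox, so the comparisons of those drugs share their control libraries. The 65 libraries form 10 groups, with 6 libraries each for 5FU and DMSO1 at both times and for Ace 6h, and 7 each for the other groups. Because cells from several litters were pooled first, a group consists of parallel wells from 1 pool, and the tests measure the spread between wells and not between animals. Strain, sex and genotype were not given in the sources used here.

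Library totals ran from 14332827 to 25738297 estimated counts. Levels are given as CPM, counts scaled to the same library total with TMM factors, and they are compared within a gene and not between genes, since CPM are not corrected for transcript length. Of the 10 cardiomyocyte marker genes looked for, 9 were in the table, none was at 0 throughout, and their summed level ran from 19375 CPM in a Dox 24h library to 58365 CPM in a 5FU 6h library. The cultures also held other cells. The summed level of 8 fibroblast markers was between 15099 and 18894 CPM in DMSO2 24h, and in bulk RNA fewer cells of a type and less RNA per cell cannot be told apart. In 6 libraries the residual spread from the group mean exceeded 0.2 on the log2 scale (SD over genes). These are library 1 of 5FU 6h, library 1 of DMSO1 24h, library 3 of DMSO1 6h, library 7 of Dox 24h and libraries 4 and 7 of Dox 6h, where the numbers are only labels.

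In the control wells most of the 9 genes rose with time in culture. Changes were tested with edgeR's quasi-likelihood test over all 14554 genes and called at a Benjamini-Hochberg adjusted p (FDR) below 0.01, and log2 fold changes are given ± SE. Between 6 and 24 hours, taking DMSO1 and DMSO2 together, 8 of the 9 were higher at 24 hours and none was lower, where 32.7% of all genes were called higher and 31.9% lower, or 64.6% in all. The change was largest for Sphkap, with a log2 fold change of 1.82 ± 0.069, and it was 1.57 ± 0.063 for Adra1b and 1.46 ± 0.06 for Adcy5. It was 0.90 ± 0.094 for Adrb1, 0.84 ± 0.051 for Adcy6, 0.84 ± 0.05 for Pde4d and 0.65 ± 0.061 for Chrm2. Pde3a rose least (0.36 ± 0.064), and Adra1a did not pass the test (-0.19 ± 0.093, edgeR FDR = 0.058). The drug effects below are therefore measured against controls that differed between the time points. The fall of Sphkap, known when the list was drawn up, was measured against the DMSO2 24h libraries, which also enter this contrast. Its rise with culture time and its rank are therefore a description.

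The 2 control groups differed from each other at 6 hours. Of the 9 genes, 6 were lower in DMSO1 than in DMSO2 and 1, Adra1a, was higher, where 16.5% of all genes passed the test. The log2 fold change of DMSO1 over DMSO2 was -0.76 ± 0.091 for Adra1b, -0.57 ± 0.10 for Sphkap, -0.54 ± 0.14 for Adrb1 and 0.48 ± 0.13 for Adra1a. Only for Adra1b did the 2 groups not overlap, which held for 5.07% of all genes. At 24 hours Adra1b alone passed (-0.41 ± 0.085, edgeR FDR = 0.0048), where 0.433% of all genes did, and that call was lost in 6 of 13 fits without 1 library. Fibroblast markers were lower in DMSO1 6h too, 7 of 8 of them, and their part in the result was not tested. In a fit of the 2 control groups alone, Adrb1, Adra1a and Pde4d missed the threshold at 6 hours, which left 4 of the 9 genes.

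**Figure D1:**
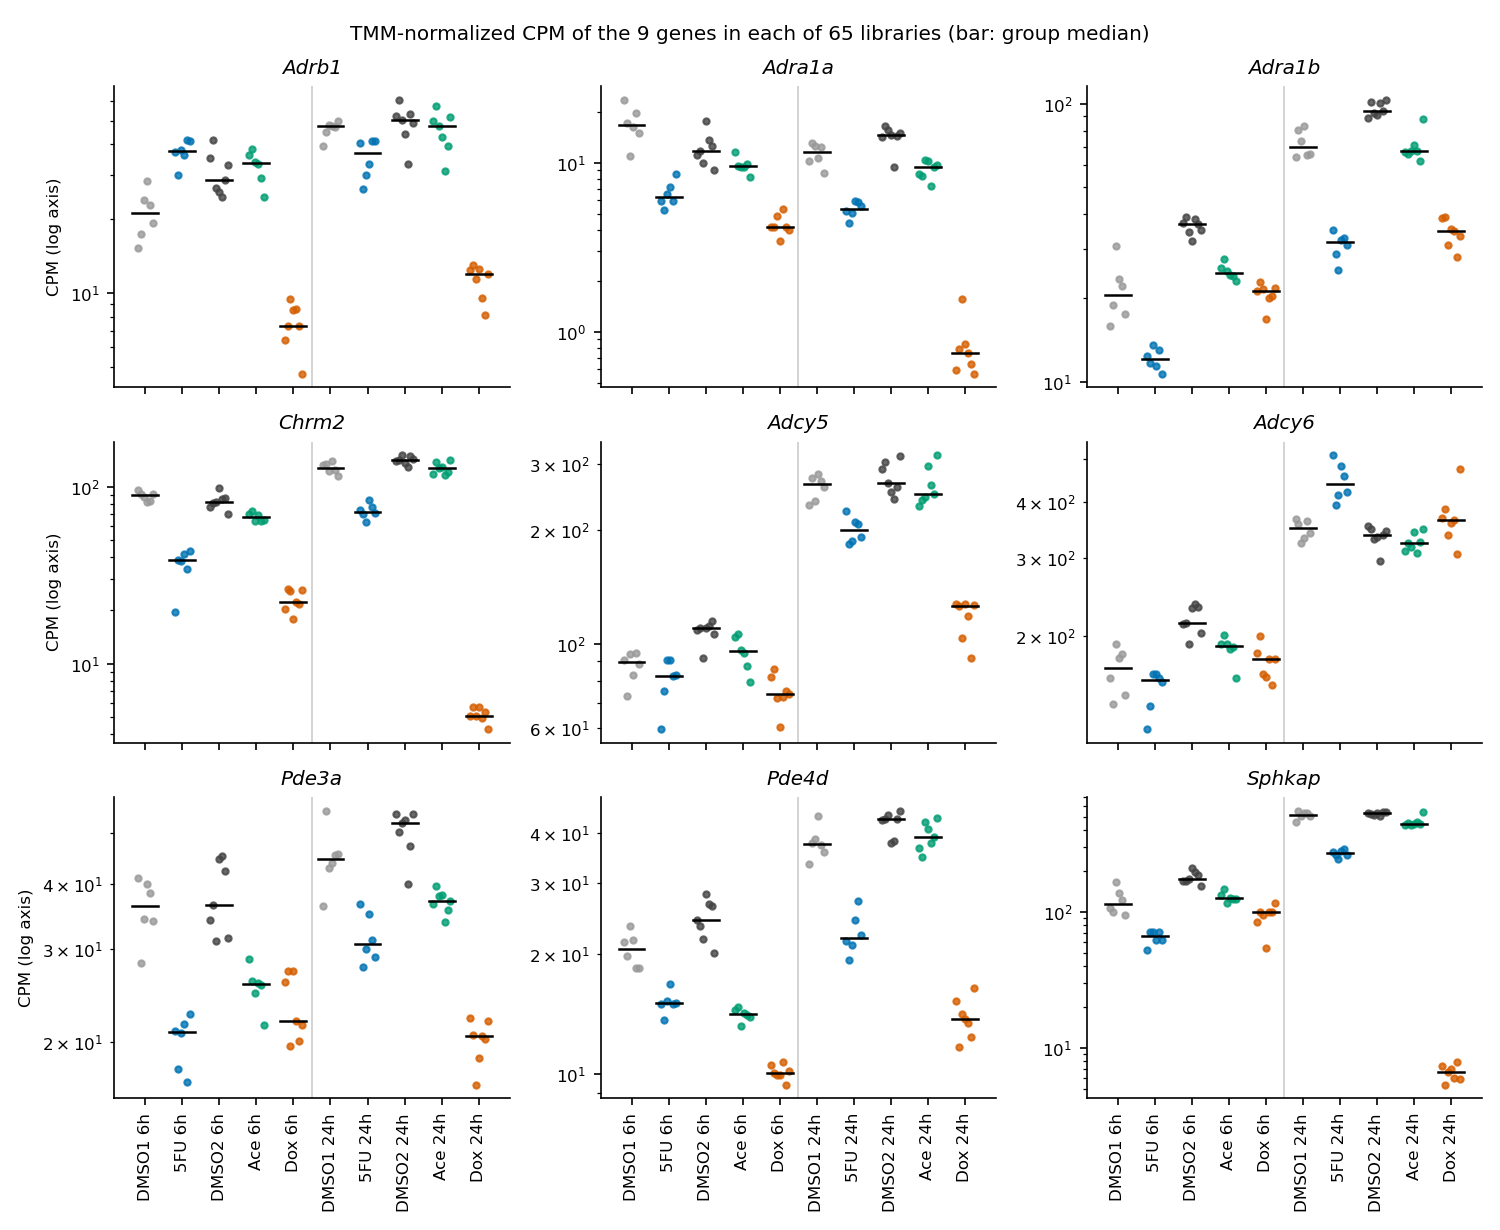
Each point is the TMM-normalized CPM of 1 gene in 1 library, on a log axis, for the 10 groups, with a bar at the group median and a line between 6 and 24 hours; grey is DMSO1, black DMSO2, blue 5FU, green Ace and orange Dox. In Dox 24h, Sphkap, Chrm2 and Adra1a lie below every library of every other group. Adcy6 in Dox 24h overlaps DMSO2 24h, with its median (365 CPM) above the highest DMSO2 24h library (354 CPM).

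Among the receptors, Adrb1 was lower with Dox at both times, raised by 5FU at 6 hours and not detectably changed by Ace. In the 6-hour controls Adrb1 ran 15.2 to 28.5 CPM (median 21.01) in DMSO1 and 24.6 to 41.5 CPM (median 28.8) in DMSO2. It was 29.96 to 41.7 CPM (median 37.6) in 5FU, 24.6 to 38.2 CPM (median 33.6) in Ace and 4.701 to 9.45 CPM (median 7.36) in Dox at that time. Every Dox library lay below every control library, and every 5FU library lay above every DMSO1 library. The 5FU libraries overlapped the DMSO2 libraries, which were not their control. Adrb1 fell in Dox 6h by 2.04 on the log2 scale (SE 0.14, edgeR FDR = 1.0e-19), about 4.10-fold, and rose in 5FU 6h by 0.82 ± 0.14 (edgeR FDR = 8.6e-07).

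At 24 hours Adrb1 was 39.6 to 49.8 CPM (median 47.3) in DMSO1, 26.3 to 41.2 CPM (median 36.98) in 5FU, 33.4 to 60.8 CPM (median 50.4) in DMSO2, 31.1 to 57.3 CPM (median 47.6) in Ace and 8.09 to 12.9 CPM (median 11.9) in Dox. The Dox libraries again lay below all others, at a log2 fold change of -2.12 ± 0.14, close to that at 6 hours. In 5FU the gene now stood below its control, but the difference missed the threshold (-0.38 ± 0.14, edgeR FDR = 0.011) and passed it without the 6 libraries of wide spread (-0.44, edgeR FDR = 0.0048). The 5FU effect itself differed between the times, by -1.20 ± 0.19 (24 minus 6 hours, edgeR FDR = 4.9e-07), in the contrast where 39.5% of all genes passed. For Ace the log2 fold changes were 0.082 ± 0.13 at 6 hours and -0.10 ± 0.12 at 24 hours, with 95% intervals of -0.18 to 0.34 and -0.34 to 0.14.

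The α1 receptors were lower with all 3 drugs at most times. Adra1a encodes the α1A receptor and Adra1b the α1B receptor, both coupled to Gq. In 24-hour cultures Adra1a was 9.405 to 16.5 CPM (median 14.7) in DMSO2, 7.26 to 10.4 CPM (median 9.403) in Ace and 0.565 to 1.57 CPM (median 0.7503) in Dox, against 8.68 to 13.2 CPM (median 11.6) in DMSO1 and 4.42 to 5.93 CPM (median 5.34) in 5FU. The Dox libraries held 11 to 26 counts each, a median of 14, and stood far below every other library, with library 3 at 1.57 CPM and the other 6 at 0.565 to 0.843 CPM. The log2 fold change in Dox 24h was -4.14 ± 0.18, a level 17.6-fold lower.

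At 6 hours Adra1a was 11.02 to 23.6 CPM (median 16.7) in DMSO1 and 5.22 to 8.57 CPM (median 6.25) in 5FU, and 9.03 to 17.8 CPM (median 11.8) in DMSO2, 8.195 to 11.6 CPM (median 9.503) in Ace and 3.46 to 5.31 CPM (median 4.15) in Dox. Neither the 5FU nor the Dox libraries overlapped their controls, and the Ace libraries did. Adra1a fell in 5FU 6h (-1.38 ± 0.14, edgeR FDR = 6.7e-13) and Dox 6h (-1.52 ± 0.14, edgeR FDR = 4.1e-15), and missed the threshold in Ace 6h (-0.34 ± 0.13, edgeR FDR = 0.032), which it just passed without the 6 libraries of wide spread (-0.37, edgeR FDR = 0.0098). At 24 hours it fell in 5FU (-1.09 ± 0.15, edgeR FDR = 2.9e-09) and in Ace (-0.64 ± 0.13, edgeR FDR = 2.6e-05), the latter with overlap. Adra1a was the exception to the rise with culture time, and there the 2 controls moved in opposite directions. Between 6 and 24 hours its median went from 16.7 to 11.6 CPM in DMSO1. In DMSO2, the control of Dox, it went from 11.8 to 14.7 CPM. The ranges of the 2 times overlapped in both controls.

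Adra1b passed the test as lower in each of the 5 drug comparisons that could be tested. It was 32.2 to 39.2 CPM (median 36.9) in DMSO2 6h, 23.2 to 27.7 CPM (median 24.6) in Ace 6h and 16.8 to 22.9 CPM (median 21.2) in Dox 6h, and 15.9 to 30.7 CPM (median 20.5) in DMSO1 6h and 10.7 to 13.6 CPM (median 12.1) in 5FU 6h. None of these drug groups overlapped its control. The log2 fold changes were -0.82 ± 0.10 for 5FU (edgeR FDR = 2.8e-10), -0.54 ± 0.09 for Ace (edgeR FDR = 1.3e-06) and -0.81 ± 0.088 for Dox (edgeR FDR = 1.8e-12). At 24 hours the levels were 64.1 to 83.3 CPM (median 69.7) in DMSO1, 25.3 to 35.2 CPM (median 31.8) in 5FU, 88.9 to 103 CPM (median 94.4) in DMSO2, 62.3 to 87.9 CPM (median 67.4) in Ace and 28.02 to 39.2 CPM (median 34.9) in Dox. Again no drug group reached its control, with falls of 1.22 in 5FU (edgeR FDR = 3.2e-18) and 0.46 in Ace (edgeR FDR = 3.0e-06) on the log2 scale and a value of -1.48 ± 0.084 in Dox.

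Chrm2, like Adra1a, was lower in Dox and in 5FU at both times. In DMSO2 it ran 70.2 to 97.97 CPM (median 82.2) at 6 hours and 129 to 150.1 CPM (median 140.5) at 24 hours, and in Dox 17.9 to 26.4 CPM (median 22.4) at 6 hours and 4.28 to 5.72 CPM (median 5.09) at 24 hours. The 4 ranges did not overlap, and the Dox level dropped between the times while the control level rose. Chrm2 fell by 1.85 on the log2 scale in Dox 6h (SE 0.089, edgeR FDR = 9.1e-28), about 3.598-fold, and in Dox 24h it stood at -4.78 ± 0.11, a 27.4-fold lower level.

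In 5FU the M2 receptor gene was lower at both times and more so at 6 hours. Chrm2 was 81.6 to 95.3 CPM (median 89.1) in DMSO1 6h against 19.6 to 43.3 CPM (median 38.3) in 5FU 6h, and 115 to 139 CPM (median 127) in DMSO1 24h against 63.2 to 84.01 CPM (median 72.3) in 5FU 24h. There was no overlap at either time. The log2 fold changes were -1.29 ± 0.092 (edgeR FDR = 7.1e-19) and -0.80 ± 0.09 (edgeR FDR = 8.0e-12), and their difference passed the test (0.49 ± 0.13, edgeR FDR = 0.0011). Library 1 of 5FU 6h held the lowest value, 19.6 CPM; without it the 6-hour change was -1.17 and the difference 0.36, and in a fit of those 4 groups alone the difference missed the threshold (edgeR FDR = 0.016). In Ace 6h Chrm2 was 63.5 to 73.1 CPM (median 66.9), a small fall with overlap (-0.30 ± 0.087, edgeR FDR = 0.0041) that was lost in 5 of 13 fits without 1 library. In Ace 24h it was 116 to 142 CPM (median 127) and missed the threshold (-0.15 ± 0.081, edgeR FDR = 0.13).

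**Figure D2:**
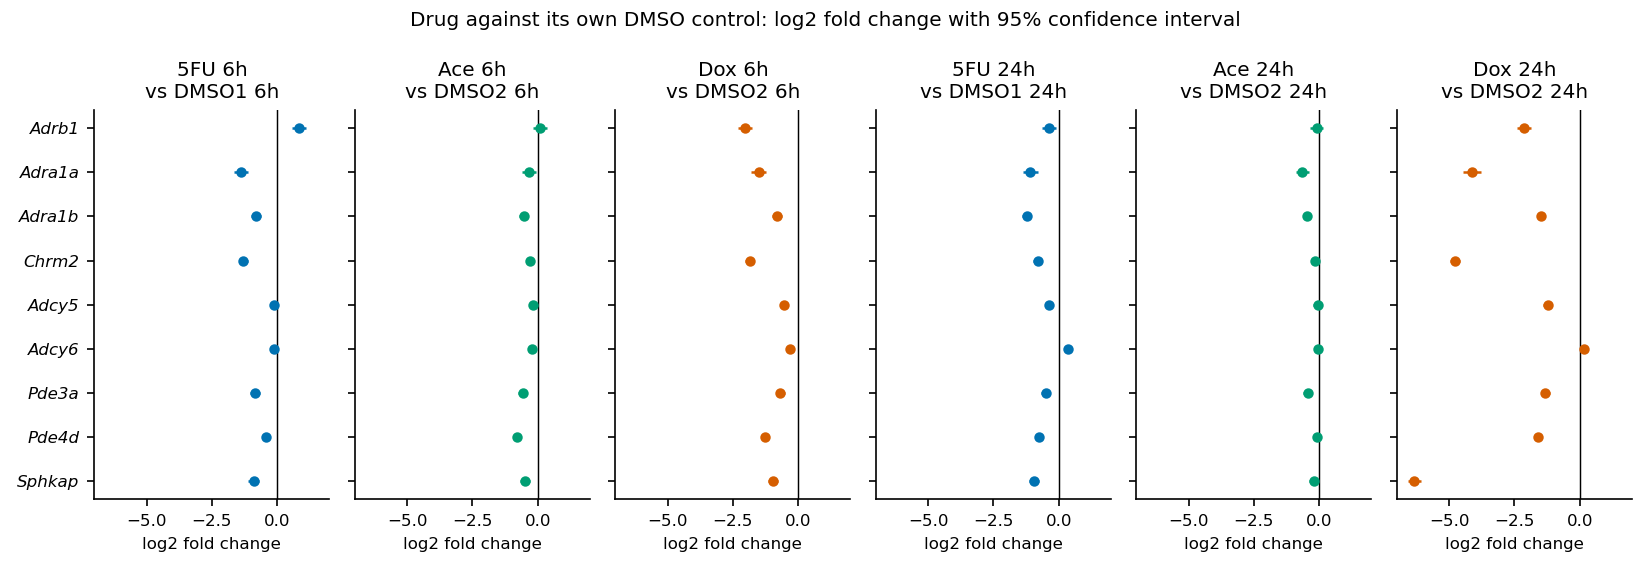
Points are log2 fold changes of each drug group over its own DMSO control at the same time, with bars for the 95% confidence interval, 1 panel for each of the 6 comparisons. Most points lie left of 0; the exceptions past the threshold are Adrb1 in 5FU 6h (0.82) and Adcy6 in 5FU 24h (0.36), and the lowest points are Sphkap (-6.32), Chrm2 (-4.78) and Adra1a (-4.14) in Dox 24h.

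The 2 cyclases parted. Adcy5 and Adcy6 encode the principal adenylyl cyclases of heart muscle, both inhibited by Gi and by calcium. Adcy5 was 242 to 314 CPM (median 267) in DMSO2 24h and 91.6 to 128 CPM (median 126) in Dox 24h, while Adcy6 was 295 to 354 CPM (median 338) in DMSO2 24h and 306 to 473 CPM (median 365) in Dox 24h. For Adcy5 the groups were far apart (-1.23 ± 0.08), and for Adcy6 they overlapped (0.15 ± 0.069). At 6 hours of Dox both were lower, Adcy5 at 60.4 to 86.2 CPM (median 73.6) against 91.9 to 115 CPM (median 110.3) in DMSO2 (-0.53 ± 0.081, edgeR FDR = 3.6e-08) and Adcy6 at 155 to 200.2 CPM (median 178) against 192 to 236 CPM (median 214) (-0.32 ± 0.069, edgeR FDR = 5.2e-05). Only the groups of Adcy6 overlapped.

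With 5FU the cyclases moved in opposite directions at 24 hours. Adcy5 was 233 to 282 CPM (median 266) in DMSO1 24h and 183 to 225 CPM (median 200.2) in 5FU 24h, and Adcy6 was 324 to 367 CPM (median 349) in DMSO1 24h and 395 to 509 CPM (median 439.6) in 5FU 24h. Neither pair of groups overlapped. Adcy5 fell (-0.37 ± 0.085, edgeR FDR = 1.3e-04) and Adcy6 rose (0.36 ± 0.074, edgeR FDR = 2.1e-05), to the highest median of the 10 groups. At 6 hours neither passed the test in 5FU, with 72.9 to 94.9 CPM (median 89.6) in DMSO1 and 59.6 to 90.8 CPM (median 82.5) in 5FU for Adcy5 (-0.12 ± 0.087, edgeR FDR = 0.22) and 141 to 192 CPM (median 169.8) and 124 to 165 CPM (median 159.6) for Adcy6 (-0.14 ± 0.075, edgeR FDR = 0.11). The 5FU effect on Adcy6 differed between the times (0.50 ± 0.11, edgeR FDR = 6.3e-05).

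Ace left both cyclases without a call. Adcy5 was 79.6 to 106 CPM (median 95.8) in Ace 6h and 232 to 316 CPM (median 250.04) in Ace 24h, and Adcy6 was 161 to 201 CPM (median 190.3) in Ace 6h and 307 to 347 CPM (median 324) in Ace 24h. All of these overlapped DMSO2. The nearest to the threshold was Adcy6 in Ace 6h (-0.22 ± 0.072, edgeR FDR = 0.011), which passed it without the 6 libraries of wide spread, in DESeq2 and in a fit of the 2 groups alone. At 24 hours the 95% intervals of the log2 fold change were -0.22 to 0.088 for Adcy5 and -0.18 to 0.091 for Adcy6.

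Pde3a encodes the cGMP-inhibited phosphodiesterase that the heart drug milrinone blocks, and it was lower in each of the 5 tested drug comparisons. Its levels in DMSO1 were 28.3 to 40.98 CPM (median 36.3) at 6 hours and 36.2 to 55.01 CPM (median 44.6) at 24 hours, and in 5FU 16.8 to 22.6 CPM (median 20.9) and 27.7 to 36.6 CPM (median 30.6). In DMSO2 they were 31.1 to 45.1 CPM (median 36.4) and 40.01 to 54.3 CPM (median 52.1), in Ace 21.5 to 28.8 CPM (median 25.8) and 33.8 to 39.6 CPM (median 37.05), and in Dox 19.7 to 27.3 CPM (median 21.9) and 16.6 to 22.2 CPM (median 20.5). Only 5FU 24h overlapped its control, and Dox 24h had the lowest median of the 10 groups. At 6 hours the log2 fold changes were -0.84 ± 0.10 in 5FU (edgeR FDR = 4.2e-11), -0.57 ± 0.093 in Ace (edgeR FDR = 6.5e-07) and -0.69 ± 0.09 in Dox (edgeR FDR = 4.6e-10). At 24 hours they were -0.50 ± 0.095 in 5FU (edgeR FDR = 5.6e-06), -0.44 ± 0.086 in Ace (edgeR FDR = 2.0e-05) and -1.31 ± 0.09 in Dox.

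Pde4d, a cAMP-specific phosphodiesterase found near the ryanodine receptor and β receptors, was the member on which the time of Ace treatment told. Pde4d was 20.1 to 28.3 CPM (median 24.3) in DMSO2 6h and 13.2 to 14.7 CPM (median 14.1) in Ace 6h, and 37.7 to 45.5 CPM (median 43.3) in DMSO2 24h and 34.8 to 43.7 CPM (median 39.2) in Ace 24h. The 6-hour groups did not overlap and the 24-hour groups did. The fall of 0.79 on the log2 scale at 6 hours (SE 0.074, edgeR FDR = 1.1e-13) was the largest of the 9 genes in Ace 6h, while at 24 hours the value was -0.10 ± 0.065 (edgeR FDR = 0.21). The difference between the times was 0.69 ± 0.10 (edgeR FDR = 1.3e-07), and Pde4d was the only one of the 9 genes to pass in that contrast, where 11.6% of all genes did; Sphkap passed too without the 6 libraries of wide spread (0.31, edgeR FDR = 0.0068).

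With the other drugs Pde4d was lower throughout. It was 18.4 to 23.5 CPM (median 20.6) in DMSO1 6h and 13.7 to 16.8 CPM (median 15.03) in 5FU 6h, 33.5 to 44.2 CPM (median 37.7) in DMSO1 24h and 19.2 to 27.005 CPM (median 21.9) in 5FU 24h, 9.42 to 10.7 CPM (median 10.1) in Dox 6h and 11.7 to 16.5 CPM (median 13.7) in Dox 24h. None of the 4 drug groups overlapped its control, and the Dox 6h libraries lay within 9.42 to 10.7 CPM. The log2 fold changes were -0.44 ± 0.076 in 5FU 6h (edgeR FDR = 1.4e-06), -0.75 ± 0.073 in 5FU 24h (edgeR FDR = 8.4e-14), -1.27 ± 0.073 in Dox 6h (edgeR FDR = 5.7e-24) and -1.60 ± 0.07 in Dox 24h.

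Sphkap is a PKA anchoring protein of the heart that binds the type I regulatory subunit. Its highest group median, in DMSO2 24h, was 80.6 times its lowest, in Dox 24h, the widest range of the 9 genes. That is the comparison known when the list was drawn up, so the width of the range is a description. In DMSO2 it was 155 to 210.4 CPM (median 176) at 6 hours and 509 to 547 CPM (median 535) at 24 hours. In Dox it was 54.9 to 116 CPM (median 100.1) at 6 hours and 5.38 to 7.97 CPM (median 6.63) at 24 hours. The Dox level dropped between the times while that of the control rose, and the 4 groups did not overlap. The 7 Dox 24h libraries, labelled 1 to 7, held 7.45, 5.38, 6.63, 7.05, 6.002, 7.97 and 5.97 CPM, or 95 to 148 counts. The log2 fold change was -6.32 ± 0.12 in Dox 24h, a level 80.1-fold lower, and the log2 value was -6.29 without the 6 libraries of wide spread.

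After 6 hours of Dox Sphkap was already lower by 0.96 on the log2 scale (SE 0.093, edgeR FDR = 3.4e-14), about 1.95-fold and without overlap. Library 4 was the lowest at 54.9 CPM and the others lay between 84.8 and 116 CPM; without libraries 4 and 7 and the other libraries of wide spread the value was -0.90. In 5FU Sphkap was 52.8 to 71.8 CPM (median 66.9) at 6 hours against 95.6 to 167 CPM (median 116) in DMSO1, and 248 to 291 CPM (median 272) at 24 hours against 459 to 558 CPM (median 524). The falls were of like size, 0.90 (edgeR FDR = 1.8e-11) and 0.93 (edgeR FDR = 1.7e-12) on the log2 scale, with no overlap, and the 95% interval of their difference was -0.31 to 0.24. In Ace 6h it was 118 to 147 CPM (median 127), a fall of 0.48 without overlap (edgeR FDR = 3.2e-05), and in Ace 24h 435 to 542 CPM (median 447) with library 7 highest, which missed the threshold (-0.21 ± 0.091, edgeR FDR = 0.055) and passed it without the 6 libraries (edgeR FDR = 0.0043).

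Set side by side, the Dox effects at the 2 times differed among the genes. The log2 fold change at 24 hours minus that at 6 hours was -5.36 ± 0.15 for Sphkap, -2.93 ± 0.14 for Chrm2 and -2.62 ± 0.23 for Adra1a. It was -0.70 ± 0.11 for Adcy5, -0.66 ± 0.12 for Adra1b, -0.62 ± 0.13 for Pde3a and -0.33 ± 0.10 for Pde4d. For Adrb1 it was -0.087 ± 0.20 and for Adcy6 0.46 ± 0.10. In that contrast 64.8% of all genes passed the threshold. The fold change of the β1 receptor gene at 24 hours was thus near that at 6 hours, while for the M2 receptor, the α1A receptor and the anchor the larger part came after 6 hours. Scaling by library size alone moved the median of all genes from 0.065 to 0.27 in this contrast and from 0.003 to -0.15 in Dox 6h, and with it Pde4d came to -0.13 in this contrast.

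In counts over the 9 genes, Dox 6h lowered all 9 at an FDR below 0.01, where 32.7% of all genes were called lower and 64.2% called at all, and in 8 of the 9 the groups did not overlap (42.6% of all genes). In 5FU 6h 6 genes fell and 1 rose, where 47.9% of all genes passed. In Ace 6h 5 fell and none rose, where 31.7% passed. In 5FU 24h 7 fell and 1 rose (55.8% of all genes), in Ace 24h 3 fell (37.2%), while in Dox 24h 8 of the 9 log2 fold changes were below 0 and 1, of Adcy6, above, which is no test for genes chosen with that comparison in view (81.4% of all genes passed there). The median log2 fold change of the 9 genes was -0.82 in 5FU 6h, -0.34 in Ace 6h, -0.96 in Dox 6h, -0.75 in 5FU 24h, -0.15 in Ace 24h and -1.60 in Dox 24h, where the median of all genes was within 0.01 of 0 in each. TMM scaling itself places most genes near 0. With library size alone the median of all genes was -0.15 in Dox 6h and -0.074 in 5FU 6h.

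Ordered by group median, few neighbouring groups of a gene were apart beyond their spread. For Pde3a every one of the 9 steps in the order overlapped, and for Adrb1, Adra1a and Adcy6 there was 1 step without overlap. For Adrb1 it lay between Dox 24h and DMSO1 6h, for Adra1a between Dox 24h and Dox 6h, and for Adcy6 between DMSO2 6h and Ace 24h, that is between all 6-hour and all 24-hour groups. Adra1b and Sphkap had 4 such steps, Chrm2 and Pde4d 3, and Adcy5 2. For Sphkap they lay between Dox 24h and 5FU 6h, between Ace 6h and DMSO2 6h, between DMSO2 6h and 5FU 24h, and between 5FU 24h and Ace 24h. Groups that are not neighbours in the order could still overlap, as DMSO1 6h and DMSO2 6h did for Sphkap.

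Over the 10 group means of log2 CPM, Chrm2 and Sphkap were the most alike pair of the 9 genes (Pearson r = 0.95), followed by Adra1a and Chrm2 (0.93) and Adra1b and Adcy5 (0.90), and Adra1a and Adcy6 the least alike (-0.28). After the group means were subtracted, the correlations over the 65 libraries were 0.46, 0.37, 0.52 and 0.14 for the same pairs, and Adcy5 with Adcy6 was the highest of the 36 pairs at 0.75. These are descriptions: the 10 points share their drugs and controls, and libraries share depth and RNA preparation. The 10 points also include the groups in which the fall of Sphkap was known when the list was drawn up. Among 10509 genes with a mean count of at least 100, the ones most like Sphkap over the group means were Acox3, Mylk3 and Dock1 (r = 0.99 each), with within-group correlations of -0.00086, 0.64 and 0.58. Those most like Chrm2 were Asb12, Pdzd2 and Asb2 (0.99 each; 0.29, 0.64 and 0.41 within groups), and those most like Adra1a were Eml1, Sfxn1 and Cyp20a1 (0.99, 0.98 and 0.98; 0.45, 0.018 and -0.086 within groups). Those most like Adcy6 were Abcg1, Slc41a1 and Adcy1 (0.98 each; 0.43, 0.77 and 0.61 within groups), and those most like Adcy5 were Arhgap26, Pla2g6 and Apoe (0.98, 0.98 and 0.97; 0.48, 0.53 and 0.31). For Adrb1 they were Tut4, Tbc1d5 and Cyth1, for Adra1b Zc3h7b, Arhgap18 and Ppfibp2, for Pde3a Lamb1, Togaram2 and Osbpl1a, and for Pde4d Foxp2, Zmym6 and Meak7, with r between 0.96 and 0.98 over group means and between -0.12 and 0.66 within groups.

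The promoters of Sphkap, Chrm2 and Adrb1 are shown from RefSeq (assembly GRCr8). Sphkap and Chrm2 were the most alike pair over the group means (Pearson r = 0.95). Within groups their correlation was 0.46, below that of Adcy5 with Adcy6 at 0.75. The group means include the fall of Sphkap known when the list was drawn up, so the choice of this pair is a description. Adrb1 was the only one of the 7 promoters found with a match to a motif searched for. Each sequence holds 250 bases up to the annotated start of the gene, read 5′ to 3′ in the direction of the gene. Capitals mark the half-site TGACG of the cAMP response element.
Sphkap (chr9:92105626-92105875, minus strand): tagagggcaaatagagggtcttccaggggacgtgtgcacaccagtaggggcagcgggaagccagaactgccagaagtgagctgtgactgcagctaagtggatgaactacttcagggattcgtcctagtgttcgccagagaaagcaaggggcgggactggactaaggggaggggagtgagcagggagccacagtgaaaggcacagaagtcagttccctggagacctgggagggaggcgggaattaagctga
Chrm2 (chr4:65982200-65982449, plus strand): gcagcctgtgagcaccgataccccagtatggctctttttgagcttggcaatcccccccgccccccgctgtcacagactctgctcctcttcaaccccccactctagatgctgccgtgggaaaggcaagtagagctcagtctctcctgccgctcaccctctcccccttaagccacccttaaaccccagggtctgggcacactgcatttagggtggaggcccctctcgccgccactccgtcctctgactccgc
Adrb1 (chr1:265776853-265777102, plus strand): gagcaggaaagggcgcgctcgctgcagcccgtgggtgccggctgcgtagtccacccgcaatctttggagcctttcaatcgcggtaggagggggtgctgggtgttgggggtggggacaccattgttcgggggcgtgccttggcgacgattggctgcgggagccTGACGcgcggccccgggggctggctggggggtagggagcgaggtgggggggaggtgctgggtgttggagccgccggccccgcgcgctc
Promoters were found for 7 of the 9 genes, all but Adra1a and Adcy6. In the window from 250 bases before to 50 after the start, 4 motifs were searched on both strands: the full cAMP response element (TGACGTCA), its half-site (TGACG, which also lies within the full element), the TATA box (TATAAA) and a GATA motif (AGATAA). The only match was 1 half-site in Adrb1, with its first base 88 bases before the start. Of 11403 promoters of genes in the table, 30.5% held the half-site, 2.96% the full element, 7.28% the TATA box and 6.14% the GATA motif. The share of G and C bases was 60.3% for Chrm2 and 70.7% for Adrb1, against a median of 60.7% over those promoters, and 39.7% for Pde4d. A match is only a run of letters and says nothing of binding.

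Of the other adrenergic receptor genes described here, Adra1d was lower with Dox, and Adrb3 and the α2 receptors were higher. For Adrb3 and Adra2c that direction was fixed by the count filter of the table, as given below. Adra1d, the third α1 receptor, was 33.9 to 39.96 CPM (median 36.7) in DMSO2 24h and 7.59 to 12.7 CPM (median 10.8) in Dox 24h, without overlap (-1.84 ± 0.14, edgeR FDR = 1.1e-18). It had fallen at 6 hours too (-1.95 ± 0.15, edgeR FDR = 2.5e-18). Of these genes only Adra1d met the rule for naming, and the others were singled out after their values were seen.

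The α2 receptors couple to Gi, and all 3 were higher in Dox from low starting levels. Adra2b was 0.899 to 1.54 CPM (median 1.27) in DMSO2 24h and 6.005 to 7.66 CPM (median 6.63) in Dox 24h (2.39 ± 0.14, edgeR FDR = 1.2e-24). Adra2a was 0 to 0.399 CPM (median 0.142) in DMSO2 24h, or 0 to 7 counts, and 3.35 to 7.42 CPM (median 6.06) in Dox 24h, without overlap. Adra2c had no count in any DMSO2 library of either time; against a floor of 3 counts per library it was at least 6.96-fold higher in Dox 6h and at least 25.98-fold higher in Dox 24h, where it was 2.06 to 5.48 CPM (median 4.61). Adrb3, the β3 receptor, had at most 1 count in a DMSO2 24h library and was 3.87 to 7.27 CPM (median 5.63) in Dox 24h, at least 34.6-fold higher. Neither Adra2c nor Adrb3 had more than 2 counts in any library of 5FU, Ace or DMSO. Every gene of the table reached 10 counts in at least 1 library, and these genes did so only in Dox. Their higher level in Dox was thus fixed by that filter and is a description. Adra2a rose in 5FU 6h, to 0.504 to 1.93 CPM (median 1.01) against at most 3 counts per library in DMSO1 6h (at least 7.48-fold).

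**Figure D3:**
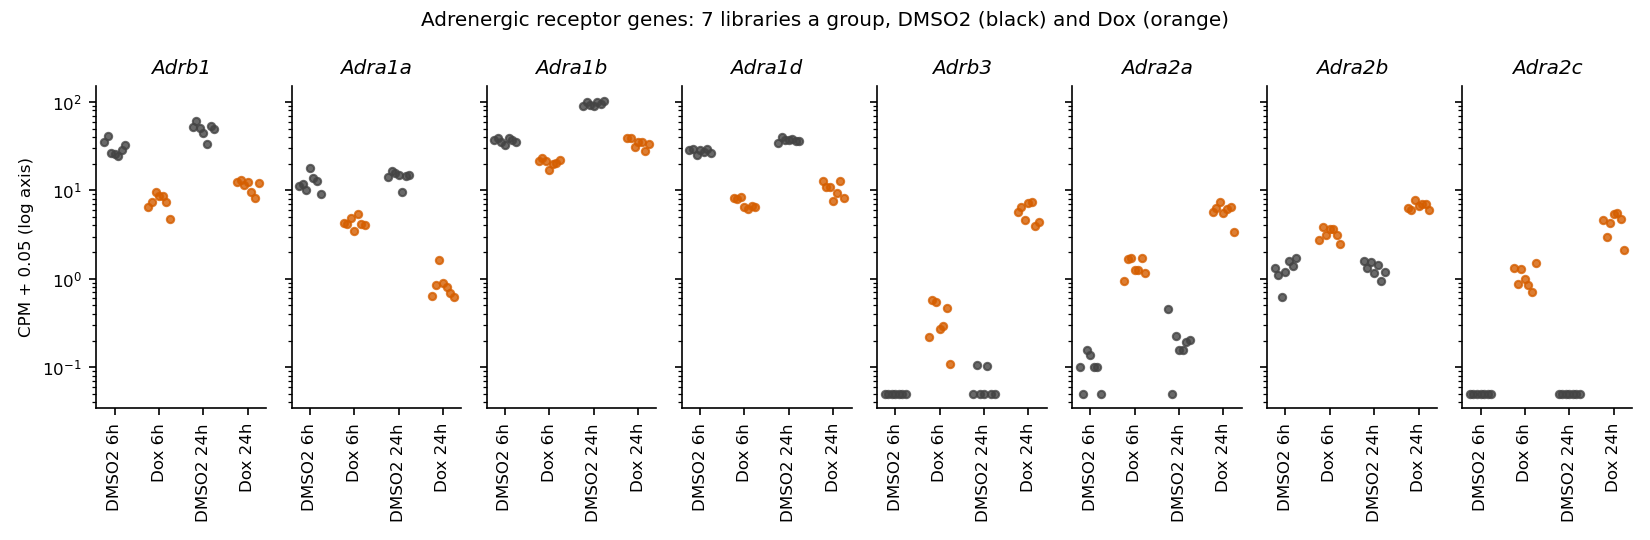
Points are CPM plus 0.05, on a log axis, of 8 adrenergic receptor genes in the 7 libraries of each DMSO2 (black) and Dox (orange) group. In the first 4 panels the Dox points lie below the DMSO2 points of the same time, and in the other 4 they lie above; at 24 hours Adra2b has a Dox median of 6.63 CPM against 1.27 in DMSO2. Adrb3 and Adra2c passed the count filter of the table only through Dox libraries, so their direction is a description. Levels are not corrected for transcript length, so heights are comparable within a panel.

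Markers of cell types changed too. Of all genes, 81.4% passed the test in either direction in Dox 24h, 64.2% in Dox 6h and 55.8% in 5FU 24h. The shares were 37.2% in Ace 24h, 31.7% in Ace 6h and 47.9% in 5FU 6h. They are the measure for the marker counts below. In Dox 24h 8 of the 9 cardiomyocyte markers were lower and 1, Nppa, was higher, with a median log2 fold change of -2.87. Their summed level was 19375 to 24118 CPM (median 20897) against 34050 to 44925 CPM (median 40992) in DMSO2. Within these sums Nppa alone had a median of 12215 CPM in Dox 24h and 1017 CPM in DMSO2 24h. The summed level of the 8 fibroblast markers, all lower, was 1917 to 4064 CPM against 15099 to 18894 CPM. The 5 endothelial markers, also all lower, summed to 17.6 to 40.2 CPM against 220.5 to 292 CPM. Of the macrophage markers 4 of 5 were lower and 1 higher, of the smooth muscle and pericyte markers 3 of 6 lower and 2 higher, and of the Schwann and neuronal markers 1 of 3 lower and 1 higher. In Dox 6h, where all 9 signalling genes fell, 4 of the 9 cardiomyocyte markers were higher and 3 lower (median 0.36) and their summed level overlapped the control at 38966 to 49362 against 38800 to 43570 CPM. Nppa had a median of 10694 CPM in Dox 6h and 6222 CPM in DMSO2 6h. The fibroblast and endothelial markers were lower there, 6 of 8 and 5 of 5. In 5FU 24h all 8 fibroblast markers (median -1.38), 4 of 5 endothelial and 6 of 9 cardiomyocyte markers were lower, and the summed level of the last was 25509 to 27367 CPM against 30759 to 37496 CPM in DMSO1, without overlap. The median of Nppa within that sum was higher in 5FU 24h, at 5789 CPM against 1312 CPM in DMSO1 24h. In Ace 24h all 8 fibroblast (median -1.26), 4 of 5 endothelial, 5 of 5 macrophage and 4 of 9 cardiomyocyte markers were lower. In Ace 6h 6 of 8 fibroblast markers and 1 of 9 cardiomyocyte markers were lower, and in 5FU 6h 2 of 8 and 2 of 9. No marker list had a gene at 0 in every library, and the part of cell composition in the results was not tested.

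Of the pathway around the 9 genes, 142 other genes were in the table, in 16 groups by role. In Dox 24h 55 of them rose and 67 fell, where 81.4% of all genes passed in either direction, and in Dox 6h 36 rose and 65 fell (64.2%). In 5FU 24h 29 rose and 62 fell (55.8%) and in 5FU 6h 21 rose and 55 fell (47.9%). In Ace 24h 14 rose and 48 fell (37.2%) and in Ace 6h 16 rose and 37 fell (31.7%). These shares of all genes are also the measure for the counts of single groups that follow. Most single genes below are named only in the comparisons where they were among the largest changes. A comparison left out does not mean that the gene was unchanged there. The median log2 fold change was -0.16 in Dox 24h, -0.26 in 5FU 24h and -0.091 in Ace 24h. DMSO1 and DMSO2 differed in 36 of the 142 genes at 6 hours and in none at 24 hours, by edgeR and by DESeq2; at 24 hours 8 passed an FDR below 0.1 and 27 an unadjusted p under 0.05 in edgeR.

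The other phosphodiesterases, which set how long cAMP and cGMP last, changed mostly one way with 5FU and Ace. In 5FU 24h 14 of 15 fell and none rose (median -0.97), where 27.8% of all genes were called lower; the exception was Pde4a (-0.094 ± 0.10). In Ace 24h 10 of 15 fell and none rose (median -0.50), where 19.1% of all genes were called lower. In the controls 10 of the 15 had risen with time in culture and none had fallen. Pde1a fell in Ace 6h (-1.06 ± 0.11, edgeR FDR = 6.1e-12) and Ace 24h (-0.98 ± 0.10, edgeR FDR = 5.3e-12). It was low with the other drugs too, with a median of 2.64 CPM in Dox 24h against 14.5 CPM in DMSO2 24h. In 5FU 6h its median was 4.33 CPM against 10.9 CPM in DMSO1 6h.

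In Dox 24h the family split, with 9 of 15 lower and 6 higher. Pde2a, which is stimulated by cGMP, was 34.6 to 42.8 CPM (median 39.8) in DMSO2 24h and 1.57 to 2.89 CPM (median 2.17) in Dox 24h, at a log2 fold change of -4.18 ± 0.10 (edgeR FDR = 6.9e-44). Pde5a, which is specific for cGMP and the target of sildenafil, was 3.64 to 5.06 CPM (median 4.71) in DMSO2 24h and 26.7 to 38.3 CPM (median 30.6) in Dox 24h, a rise of 2.81 ± 0.11 (edgeR FDR = 1.2e-32). Neither pair of groups overlapped. At 6 hours Pde4a fell most among these (-2.26 ± 0.11, edgeR FDR = 4.4e-27) and Pde7a rose most (1.28 ± 0.088, edgeR FDR = 2.3e-20), in each case among the genes with a mean count of at least 100.

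Most of the listed PKA targets of the heart fell in Dox 24h, while most of the listed genes that cAMP is known to induce rose. Of 12 PKA substrates 10 were lower and none higher (median -1.69), and Fxyd1 and Hspb6 did not pass. Over all genes 81.4% passed in either direction, and 5964 of the 14554 genes were called lower. Ryr2, the ryanodine receptor of the sarcoplasmic reticulum, was 938 to 1319 CPM (median 1222) in DMSO2 24h and 77.8 to 101 CPM (median 83.4) in Dox 24h, a 13.7-fold lower level without overlap (edgeR FDR = 1.0e-37). Ryr2, Pln and Tnni3, all of this list of substrates, are also on the list of cardiomyocyte markers. Pln (-3.10 ± 0.078) was singled out after its value was seen. In 5FU 24h Ryr2 fell too (-1.51 ± 0.12, edgeR FDR = 4.7e-17), while Hspb6, a small heat shock protein phosphorylated by PKA, rose (1.14 ± 0.14, edgeR FDR = 2.5e-10). Rrad, an inhibitor of the L-type calcium channel, fell in Dox 6h (-2.95 ± 0.16, edgeR FDR = 1.1e-24) from 160.4 to 171 CPM (median 167) to 15.5 to 25.2 CPM (median 23.7).

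Of the 9 cAMP-responsive genes 8 rose in Dox 24h and 1, Ppargc1a, fell (median 1.58), where 40.4% of all genes were called higher. These genes also answer to other signals. Fos, an immediate early transcription factor, was 4.401 to 6.69 CPM (median 4.97) in DMSO2 24h and 80.02 to 143 CPM (median 109.95) in Dox 24h (4.47 ± 0.15, edgeR FDR = 1.3e-37), and it rose in each of the 6 drug comparisons, least in Ace 24h (0.99 ± 0.15, edgeR FDR = 1.1e-07). Nr4a1, an orphan nuclear receptor, rose in Dox 24h (3.04 ± 0.31, edgeR FDR = 1.0e-13) with a wide spread, 11.7 to 192 CPM (median 75.97) against 7.48 to 12.1 CPM (median 9.56) in DMSO2, and the groups overlapped. Per1, a clock gene, rose in 5FU at 6 hours (1.39 ± 0.10, edgeR FDR = 1.5e-19) and 24 hours (1.52 ± 0.10, edgeR FDR = 2.1e-21), and Sik1, a kinase induced by cAMP, rose in 5FU 6h (0.78 ± 0.11, edgeR FDR = 4.6e-09).

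Among the other PKA anchors, 13 of 18 fell and 3 rose in Dox 24h (median -1.22), 7 fell and 3 rose in 5FU 24h, and 7 fell and 3 rose in Ace 24h. The shares of all genes that passed were 81.4%, 55.8% and 37.2%. Akap12, a scaffold for PKA and β receptors, fell in 5FU 6h (-1.45 ± 0.10, edgeR FDR = 2.7e-19), Ace 6h (-1.17 ± 0.10, edgeR FDR = 1.5e-15) and Ace 24h (-1.09 ± 0.089, edgeR FDR = 2.5e-16). Akap5 fell in 5FU 6h (-1.93 ± 0.15, edgeR FDR = 7.8e-18). Both were also below their controls without overlap in Dox 24h. There the median of Akap12 was 19.4 CPM against 56.6 CPM in DMSO2 24h, and that of Akap5 2.30 against 10.3 CPM. Of PKA's own subunits and inhibitors 6 of 8 were lower and 1 higher in Dox 24h, with a median of -0.46; Prkar2a, a type II regulatory subunit, rose in Ace 24h (0.35 ± 0.043, edgeR FDR = 4.6e-10). Of the G protein subunits 5 of 13 rose and 4 fell in Dox 24h. Gnai1, an inhibitory α subunit, rose in Ace 6h (1.04 ± 0.081, edgeR FDR = 1.7e-16) and in Dox 6h (1.04 ± 0.079, edgeR FDR = 1.9e-18), with a shared control. In Dox 24h its median was 29.97 CPM against 11.6 CPM in DMSO2 24h, without overlap.

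Regulators of G protein signalling speed up the shutting off of G proteins. Of the 9 measured, 6 fell and none rose in 5FU 24h, where 55.8% of all genes passed, and 4 fell and 4 rose in Dox 24h, where 81.4% did. Rgs6, which limits muscarinic signalling in the heart, fell in 5FU 24h (-2.02 ± 0.16, edgeR FDR = 5.8e-17) and Dox 24h (-3.81 ± 0.17, edgeR FDR = 3.8e-30), and Rgs4 fell in 5FU 6h (-1.63 ± 0.23, edgeR FDR = 1.4e-08). The other cyclases had 4 lower and 1 higher of 8 in 5FU 24h and 2 lower and 3 higher in Dox 24h. Adcy4 fell in 5FU 24h (-1.60 ± 0.14, edgeR FDR = 5.7e-16) and Ace 24h (-1.18 ± 0.12, edgeR FDR = 2.9e-13), Adcy7 fell in Ace 6h (-0.93 ± 0.12, edgeR FDR = 5.6e-09), and Adcy3 rose in Ace 24h (0.39 ± 0.094, edgeR FDR = 4.5e-04).

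The receptor kinases and arrestins, which switch receptors off, had 5 lower and 1 higher of 7 in Dox 24h, 2 lower and 2 higher in 5FU 24h and none lower and 1 higher in Ace 24h, where 81.4%, 55.8% and 37.2% of all genes passed. The same shares are the measure for the counts of the groups below. The muscarinic potassium channel and acetylcholine breakdown group had 3 lower and 1 higher of 4 in Dox 24h, 1 lower and 2 higher in 5FU 24h and 2 lower in Ace 24h. The other muscarinic receptors in the table, Chrm3 and Chrm4, both passed as higher in Dox 24h (named after their values were seen) and in no other drug comparison, with Chrm3 1.501 to 2.35 CPM (median 1.99) and Chrm4 0.404 to 1.23 CPM (median 0.767), while Chrm2 was at its lowest. Of the CREB family and coactivators 6 of 8 rose and 1 fell in Dox 24h and 5 rose and none fell in 5FU 24h. Phospholipase C and protein kinase C had 9 of 12 lower and 1 higher in 5FU 24h and 4 lower and 5 higher in Dox 24h, and Itpr1, an IP3 receptor, rose in Ace 6h (0.65 ± 0.073, edgeR FDR = 6.4e-11). The other cAMP effectors had 2 of 6 lower and 4 higher in Dox 24h, and catecholamine breakdown and uptake 2 of 5 lower and 1 higher.

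**Figure D4:**
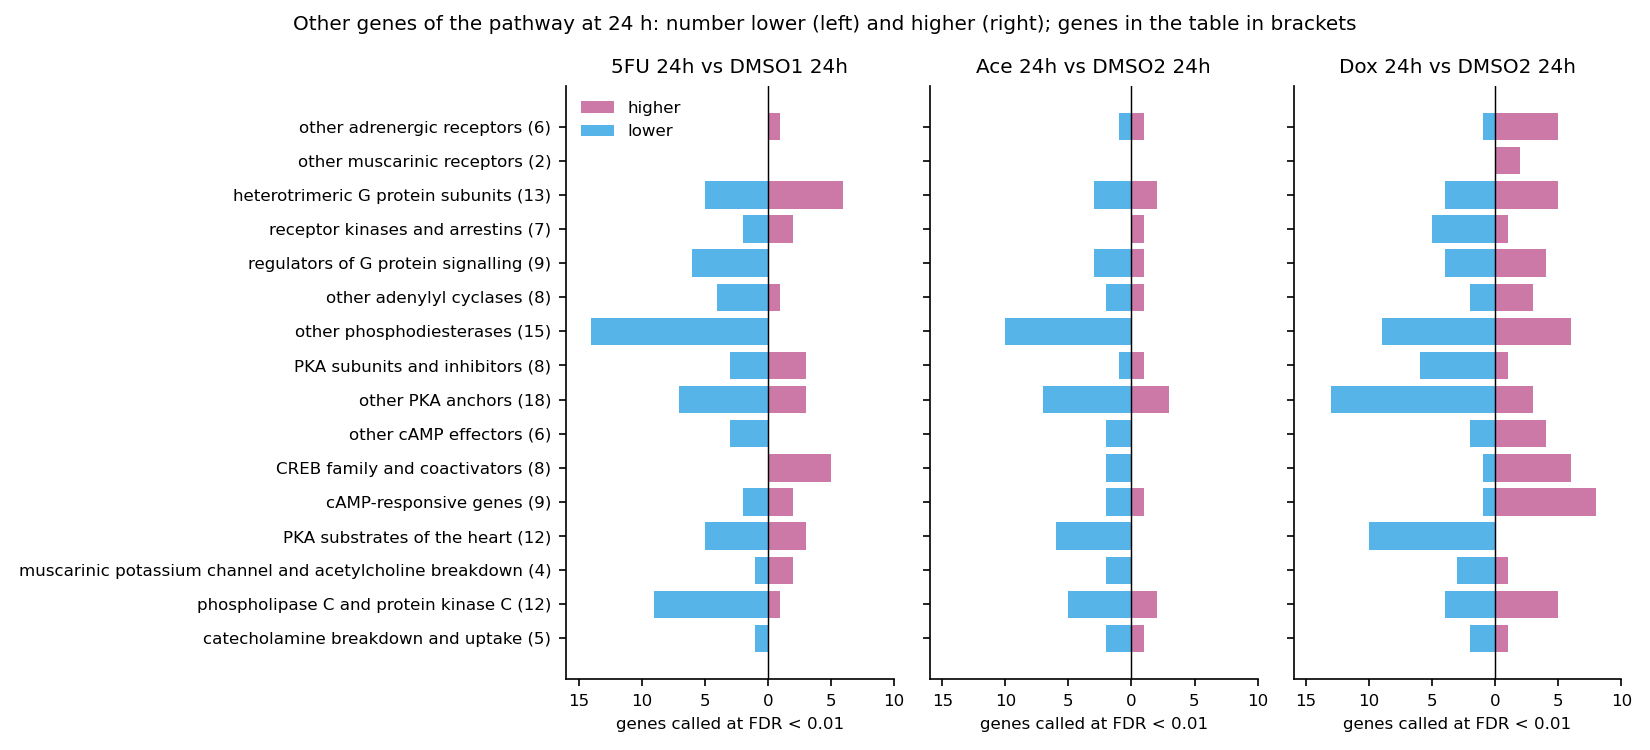
Bars give the number of other pathway genes called at an FDR below 0.01 at 24 hours, lower to the left and higher to the right, for 16 groups by role with the number of genes in the table in brackets, in 1 panel per drug. Other phosphodiesterases reach 14 lower in 5FU, 10 in Ace and 9 in Dox, where 6 are higher, and PKA substrates of the heart reach 10 lower in Dox.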

How the data were processed

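RNA with polyA tails from 65 wells of neonatal rat cardiomyocytes was sequenced. The authors quantified transcripts with kallisto (version 0.46.0) against Ensembl release 96 and summed them to Entrez genes with tximport, and they deposited estimated counts, held as whole numbers, after dropping genes with very few counts. All 14554 genes of the table were kept. The deposited estimated counts were tested with edgeR (version 4.0.16, R 4.3.3), using TMM scaling and 1 quasi-likelihood fit over the 10 groups, with 12 contrasts, Benjamini-Hochberg adjustment over all genes and an FDR threshold of 0.01. CPM were computed with TMM-scaled library sizes. Intervals of 95% are the estimate ± 1.96 SE. Reads shared by related genes are split by estimation, so values of close paralogs carry that uncertainty too.

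The 9 members were described in every group. Of 142 other pathway genes, the rule named in each drug comparison the 3 largest increases and the 3 largest decreases among called genes with a mean count of at least 100, and for each member the 3 genes with the most similar group means. Nppa, Ppargc1a, Fxyd1, Pln, Chrm3, Chrm4, Adrb3 and the α2 receptors were named after their values were seen. One gene of the lists is counted with them but not reported here on its own. The members and gene lists were chosen with earlier results of these data known. Alternatives were other scalings, filters and groups in the fit, DESeq2 (version 1.42.0), other thresholds and leaving out each library. Library totals set the counting error of low genes, and counts of 3 per library served as the floor for folds against groups at 0. The columns were matched to groups by their headers, which repeat within a group, so library numbers follow column order and are names only.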

Additional observations from a re-analysis of the deposited data

Results flagged for a closer look

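Of 90 sets of libraries (9 genes in 10 groups), 8 held a library far from the rest of its group by Dixon's test, which flags about 1 in 20 sets by chance. Adra1a was lowest in library 5 of DMSO2 24h, at 9.40 CPM where the others ran from 14.3 to 16.5 CPM, and highest in library 3 of Dox 24h, at 1.57 CPM where the others ran from 0.565 to 0.843 CPM. Adra1b was highest in library 7 of Ace 24h, at 87.9 CPM against 62.3 to 70.8 CPM, and so was Sphkap in the same library, at 542 CPM against 435 to 461 CPM. Chrm2 was lowest in library 1 of 5FU 6h, at 19.6 CPM against 34.5 to 43.3 CPM, a library with a wide residual spread over all genes. Adcy5 was lowest in library 3 of DMSO2 6h, at 91.9 CPM, and Adcy6 was lowest in library 6 of Ace 6h, at 161 CPM, and in library 5 of DMSO2 24h, at 295 CPM, the library that was also lowest for Adra1a.

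Drug effects were compared between 6 and 24 hours for each of the 9 genes with 5FU and with Ace, 18 tests in all, and 4 passed an FDR below 0.01 in edgeR (adjusted over all genes). The log2 effect of 5FU at 24 hours minus that at 6 hours was -1.20 for Adrb1, 0.49 for Chrm2 and 0.50 for Adcy6, and the same difference for Ace was 0.69 for Pde4d. For Adrb1 the effect was above 0 at 6 hours and below 0 at 24 hours, and for Adcy6 the reverse, though the value of Adrb1 at 24 hours and that of Adcy6 at 6 hours missed the threshold.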

How the results depend on the processing

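No paired analysis was possible because the columns carry no replicate numbers. Of the values of the 9 genes in the tested comparisons, 1463 of 1512 from fits without 1 library, 523 of 540 under other scalings, filters, tests and groups in the fit and 81 of 90 without the 6 libraries of wide spread (chosen after seeing the data) kept their direction and their side of the threshold. Values near 0 turned positive: with library size alone Adcy6 in Ace 24h (0.013), Sphkap between DMSO1 and DMSO2 at 24 hours (0.010) and Sphkap in the 5FU effect between times (0.038), and without the 6 libraries Sphkap between the controls at 24 hours (0.0074). The 5FU effect of Sphkap between times ran from -0.14 to 0.024 over fits without 1 library.

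The number of the 9 genes called in the 5FU effect between times was 3, or 5 with DESeq2 size factors or the DESeq2 test, 6 without the 6 libraries, 7 at an FDR below 0.1, and 3 to 5 without 1 library (5 without library 1 of DMSO1 24h). For Ace between times it was 1, or 2 without the 6 libraries. Between the controls it was 7 at 6 hours, or 4 in a fit of those groups alone, and 1 at 24 hours, or 0 with library size alone and 0 to 1 without 1 library. In Ace 6h it was 5, or 7 without the 6 libraries, 8 at an FDR below 0.1 and 4 to 6 without 1 library. Of the other pathway genes, the Ace effect between times called 16, or 26 in a fit of the compared groups alone and 33 at an FDR below 0.1, and the controls 36 at 6 hours and none at 24 hours, or 61 and 8 at an FDR below 0.1. With a log2 fold change of at least 1 as well, the 9 genes gave 2 in 5FU 6h, 0 in Ace 6h, 4 in Dox 6h, 2 in 5FU 24h, 0 in Ace 24h, 0 between the controls at either time, 3 for culture time, and 1, 0 and 3 for the 5FU, Ace and Dox effects between times, the last a count without the force of a test. The other pathway genes gave 14, 7, 34, 27, 5 and 80 in 5FU 6h, Ace 6h, Dox 6h, 5FU 24h, Ace 24h and Dox 24h, 1 between the controls at 6 hours, 14 for culture time, and 12, 0 and 57 for those effects. The stricter and looser thresholds change counts by construction; the cause of the other changes was not tested.

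With library size alone the share of calls over all genes that were higher moved from 48.9% to 36.8% in 5FU 6h, 49.1% to 33.8% in Dox 6h, 48.8% to 61.4% in Ace 24h, 59.9% to 29.6% between the controls at 6 hours, 31.7% to 80.7% between them at 24 hours, 47.9% to 77.1% for Ace between times and 52.5% to 64.9% for Dox between times. Depth limits Adra1a in Dox 24h and the low receptors, which rest on few counts.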
